A study of Mus musculus with 6 samples.

Results

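The genes described here are 10 transcripts by which white fat cells are usually recognised: Adipoq, Cfd, Lpl, Plin1, Plin4, Fabp4, Cidec, Lep, Pparg and Retn. They were found by gene name among the 34709 genes of the deposited table, and each name matched 1 row. They were put together with earlier results of these data known, and most were seen to be low in KO, though Retn was not. The difference between the groups is therefore given below as a description. The counts of these genes past a threshold, from the fit across all genes, stand beside the share of all genes past it, and nothing is read from them. The samples were articular cartilage of 18-month-old mice, 3 RNA-seq libraries from KO and 3 from wildtype animals. The labels give no treatment, and per the methods of the study male littermates were used for work on aged mice. The methods name no Cre line or promoter that limits the deletion to cartilage, so other cells in the dissected tissue may lack the gene too. Per the methods all experiments used independent samples, but the labels do not tie the libraries to animals, so p-values measure only the spread between these samples.

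White adipocytes store triglyceride in a single large lipid droplet and release fatty acids from it on demand. The nuclear receptor PPARG, with its partner RXRA and the C/EBP factors, switches on the genes for lipid uptake, droplet coating and hormone secretion as a precursor becomes a fat cell. In a joint, such cells lie in the fat pad and in the marrow under the cartilage, and they are not a component of cartilage itself. Cartilage matrix genes are made by chondrocytes.

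The libraries held 52268311 to 63331135 counts each. KO replicates 2 and 3 differed from each other far less than any other pair, with a noise ratio of 5.74 (the typical squared difference of their counts over that of Poisson sampling) against 23.0 to 81.8 for the other 14 pairs. Although the methods call the samples independent, KO replicates 2 and 3 were for this reason averaged and counted as 1 sample, which leaves 2 KO and 3 wildtype samples. By the same ratio, KO replicate 1 was nearer to every wildtype library than to the other KO libraries. Its ratio was 58.1, 23.8 and 37.6 with wildtype replicates 1, 2 and 3, and 62.2 and 62.6 with KO replicates 2 and 3. The ratio used only genes of middle count in each pair, so genes with low or very high counts were left out. Across the genes used, the KO libraries thus did not group together. The chondrocyte marker list had a summed level of 522 to 1207 FPKM (fragments per kilobase of transcript, scaled for library size) in the KO and 539 to 710 FPKM in the wildtype libraries. Most of this sum was Prg4, at 1034, 436 and 441 FPKM in KO and 402, 581 and 494 FPKM in wildtype replicates 1, 2 and 3. Prg4 is also on the fibroblast and synovium list given below. Over all libraries Comp was at 41.0 to 109 FPKM, Col2a1 at 12.4 to 21.3 FPKM and Acan at 13.2 to 22.8 FPKM. Col9a1 was at 0.048 to 0.46 FPKM, and Matn3 was the 1 marker of the list at 0 in some library. Markers of other cells were found as well. Summed levels were 24933 to 60688 FPKM in KO and 71676 to 108529 FPKM in wildtype libraries for 8 erythroid genes, 84.5 to 134 and 270 to 301 FPKM for 8 B cell genes, and 49980 to 61736 and 26656 to 43283 FPKM for 8 neutrophil genes. Blood and marrow transcripts thus differed between the groups alongside the adipocyte genes, since all 8 erythroid and all 8 B cell genes were lower in every KO than in every wildtype library (13.7% of tested genes were so ordered) and 7 of 8 neutrophil genes were higher in every KO library (11.3% of tested genes). For 8 osteoblast and osteocyte genes the sums were 658 to 943 FPKM in KO and 618 to 1772 FPKM in wildtype, and for 9 fibroblast and synovium genes 837 to 1365 and 758 to 1045 FPKM. The part of these cells in the results below was not tested. In bulk tissue, fewer cells of a type and less RNA per cell cannot be told apart.

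Because the 10 genes were grouped by their level, the DNA around their starts was looked at for short elements they might share. The RefSeq promoter windows (build GRCm38.p6, 250 bases before to 50 bases after the start) covered 8 of the 10 genes with 11 windows, Lpl and Fabp4 having no entry. The windows of 4 genes are shown because they hold the adiponectin and leptin starts, where matches were found, and the Plin1 and Cfd starts, whose transcripts varied most between samples. Each is written 5′ to 3′ along the gene's strand, and capitals mark the motif matches named in the next paragraph, on either strand (ATTGG is CCAAT read from the other strand). They lie at chr16:23146286-23146585 on the + strand for Adipoq, chr6:29059971-29060270 on the + strand for Lep, chr7:79732727-79733026 on the - strand for Plin1 and chr10:79890603-79890902 on the + strand for Cfd.
Adipoq: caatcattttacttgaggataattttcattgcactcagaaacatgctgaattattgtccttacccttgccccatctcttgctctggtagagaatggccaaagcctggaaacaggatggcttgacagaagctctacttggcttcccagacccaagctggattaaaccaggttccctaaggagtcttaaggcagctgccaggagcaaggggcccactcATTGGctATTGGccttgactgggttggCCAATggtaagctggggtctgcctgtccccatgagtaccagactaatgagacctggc
Lep: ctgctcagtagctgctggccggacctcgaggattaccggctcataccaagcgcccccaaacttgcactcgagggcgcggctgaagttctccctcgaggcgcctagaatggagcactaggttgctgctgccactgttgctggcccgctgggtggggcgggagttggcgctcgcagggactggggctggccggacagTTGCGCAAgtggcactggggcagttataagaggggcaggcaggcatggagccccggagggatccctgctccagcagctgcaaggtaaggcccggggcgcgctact
Plin1: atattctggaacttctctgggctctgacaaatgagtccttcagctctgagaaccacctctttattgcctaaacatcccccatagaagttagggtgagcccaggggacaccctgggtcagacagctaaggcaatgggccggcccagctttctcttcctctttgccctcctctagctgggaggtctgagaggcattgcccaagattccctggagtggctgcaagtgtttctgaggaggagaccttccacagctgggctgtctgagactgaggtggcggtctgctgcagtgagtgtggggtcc
Cfd: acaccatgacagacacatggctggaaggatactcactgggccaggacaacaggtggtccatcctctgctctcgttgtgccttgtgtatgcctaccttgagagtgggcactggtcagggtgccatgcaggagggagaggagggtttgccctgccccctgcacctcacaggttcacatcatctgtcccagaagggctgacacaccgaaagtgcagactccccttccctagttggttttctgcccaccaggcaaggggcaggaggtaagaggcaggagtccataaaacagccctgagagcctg

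Motifs were searched as exact letters on both strands. The box CCAAT occurred 3 times before the Adipoq start, with first bases at -34, -27 and -7, and it was also found in windows of Plin4 and Pparg. This element is held by 37.4% of all 32851 windows. The C/EBP palindrome TTGCGCAA lay at -55 in the Lep window and in no other window of the group, and 0.183% of all windows hold it. The nuclear receptor core site AGGTCA was found in 2 of the 3 Pparg windows and in no other member, against 16.3% of all windows. The direct repeat AGGTCANAGGTCA, which contains that core site and is the form bound by PPARG with RXRA, had no match in the 11 windows and a share of 0.0396% overall. The C/EBP site TTGCNNAAT (2.40% of windows) and the E-box CACGTG (7.15%) had no match either, and the TATA box TATAAA (13.6%) matched 1 Pparg window. No single motif was thus shared by most of the windows. A missing match says only that these letters are not within the window.

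The secreted products were examined first. Adipoq encodes adiponectin, the most abundant hormone of fat cells (ENSMUSG00000022878, chr16:23146536-23158028 in GRCm38). Its level was 18.9, 10.3 and 10.2 FPKM in KO replicates 1, 2 and 3, and 55.8, 32.1 and 48.2 FPKM in wildtype replicates 1, 2 and 3. All KO libraries lay under all wildtype libraries, and KO replicate 1 stood nearer to the wildtype than the other KO libraries did. The fitted difference, KO minus wildtype, was -1.60 on the log2 scale (SE 0.334), or 3.02-fold lower in KO, from edgeR on 2 KO and 3 wildtype samples.

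Cfd encodes adipsin, the complement factor D protease that fat cells release into blood (chr10:79890853-79892655). Its level was 8.01, 0.58 and 0.47 FPKM in the KO libraries and 84.6, 8.98 and 34.4 FPKM in the wildtype libraries. The groups did not overlap, but wildtype replicate 2 was only slightly above KO replicate 1 and far below wildtype replicate 1. The difference was -3.24 (SE 1.25), a 9.44-fold lower level in KO, and it was -2.29 without wildtype replicate 1, -6.35 without KO replicate 1 and -2.30 without KO replicates 2 and 3. Elane, which lies 2638 bp from Cfd on the same strand and encodes neutrophil elastase, was higher in every KO than in every wildtype library, with 575, 812 and 800 FPKM in KO and 338, 441 and 361 FPKM in wildtype libraries.

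Lep encodes leptin, the satiety hormone of fat cells (chr6:29060220-29073877). It was detected in 3 of the 6 libraries, with 13 counts in KO replicate 1, 70 in wildtype replicate 1 and 51 in wildtype replicate 3. KO replicates 2 and 3 and wildtype replicate 2 had 0 counts, which allows up to 0.0474 CPM (counts scaled for library size) in each of these KO libraries and 0.0569 CPM in the wildtype library at a floor of 3 counts. Leptin was therefore found in 1 KO and 2 wildtype libraries, and its mean was under the 0.5 FPKM needed for a test. Retn encodes resistin, a cysteine-rich hormone that mouse fat cells secrete (chr8:3655770-3660110). Its level was 0.59, 0.31 and 0.40 FPKM in KO and 0.52, 0.44 and 0.43 FPKM in wildtype libraries, again under the limit for a test. Retn was the 1 gene of the group in which the highest library was a KO library, and its groups overlapped fully. Fitted without the filter, its difference was 0.08 (SE 0.476).

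**Figure D1:**
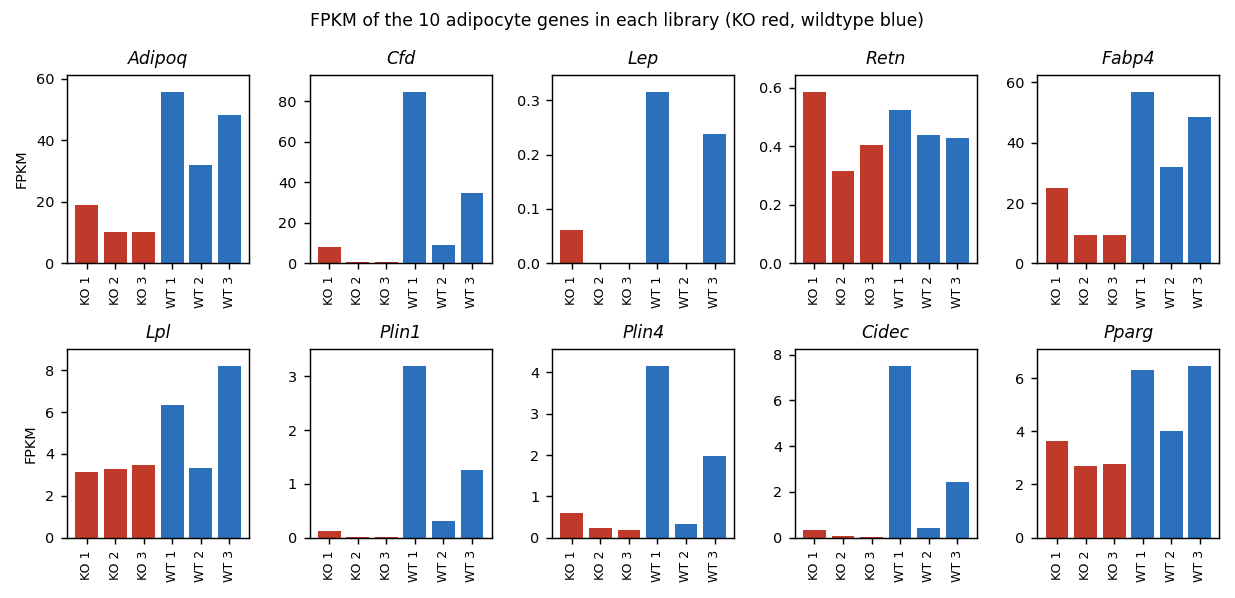
FPKM (vertical axes, from 0, a separate scale for each gene) of the 10 adipocyte genes in the 3 KO and 3 wildtype (WT) libraries, 1 bar per library. In Adipoq, Cfd, Fabp4, Plin1, Cidec and Pparg every KO bar is under every wildtype bar, while Lpl, Plin4, Lep and Retn overlap between the groups.

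The genes for fatty acid uptake and binding were considered next. Fabp4 encodes the fatty acid binding protein aP2 of the fat cell cytoplasm, which macrophages and capillary endothelium also make (chr3:10204088-10208576). It was at 25.1, 9.43 and 9.28 FPKM in KO and 56.9, 32.1 and 48.6 FPKM in wildtype libraries, which is 90.7% to 133% of the Adipoq level of the same library. The difference was -1.36 (SE 0.440), or 2.56-fold lower in KO, with no overlap between groups, and it was -2.32 without KO replicate 1 and -0.78 without KO replicates 2 and 3. Lpl encodes lipoprotein lipase, which frees fatty acids from circulating triglyceride and is also made by muscle and macrophages (chr8:68880491-68906934). Its level was 3.15, 3.26 and 3.45 FPKM in KO and 6.35, 3.35 and 8.20 FPKM in wildtype libraries. The KO libraries were nearly equal and wildtype replicate 2 sat among them, so that the groups overlapped. The difference of -0.85 (SE 0.323) was -0.53 without wildtype replicate 3.

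Because Fabp4 and Lpl are not made by fat cells alone, markers of macrophages, endothelium and muscle were set beside them, with median log2 differences of -0.31, -0.34 and -0.56. The summed level of 8 macrophage genes was 248 to 299 FPKM in KO and 285 to 369 FPKM in wildtype libraries. Of these, 2 of 8 genes were lower in every KO than in every wildtype library (13.7% of tested genes were so ordered). For 8 endothelial genes the sum was 28.5 to 34.3 and 31.2 to 46.4 FPKM, with 1 of 8 genes so ordered, and nothing is read from these counts. For 8 skeletal muscle genes it ranged from 3.57 to 187 FPKM in KO and from 36.9 to 341 FPKM in wildtype libraries, was highest in wildtype replicate 3 and KO replicate 1, and fully separated the groups for 0 genes. Lpl was highest in wildtype replicate 3, the library with the most muscle transcripts. It was lowest, at 3.15 FPKM, in KO replicate 1, which had the next highest muscle sum. The macrophage sum was 352, 285 and 369 FPKM in wildtype replicates 1, 2 and 3, the wildtype order of Lpl. In KO replicates 1, 2 and 3 it was 299, 250 and 248 FPKM, highest where Lpl was lowest. The part of muscle and of macrophages in the Lpl values was not tested.

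The genes of the droplet proteins had low levels and a wide range. Plin1 encodes perilipin 1, the coat protein of the large droplet that guards it from lipases (chr7:79720218-79732835). It was at 0.13, 0.01 and 0.01 FPKM in KO and 3.19, 0.31 and 1.26 FPKM in wildtype libraries, resting on 36, 3 and 4 counts and on 983, 87 and 377 counts. All KO libraries were lower, and those labelled 2 and 3 were at about the floor of 3 counts. The difference was -4.42 (SE 1.24). It was -3.43 without wildtype replicate 1, -3.48 without KO replicates 2 and 3, and -6.99 without KO replicate 1, where the KO side rests on the 3 and 4 counts alone.

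Cidec encodes FSP27, a protein that lets small droplets fuse into one (chr6:113424634-113435760). Its counts were 39, 8 and 4 in KO and 920, 49 and 289 in wildtype libraries, or 0.34, 0.06 and 0.03 FPKM against 7.50, 0.42 and 2.44 FPKM. Wildtype replicate 2 was again just above KO replicate 1. The difference was -4.04 (SE 1.32). It was -2.80 without wildtype replicate 1, -3.15 without KO replicates 2 and 3, and -6.21 without KO replicate 1, where the KO side rests on 8 and 4 counts. Plin4 encodes perilipin 4, which coats small new droplets and is also found in muscle (chr17:56100591-56109803). Its level was 0.59, 0.22 and 0.18 FPKM in KO and 4.16, 0.34 and 1.97 FPKM in wildtype libraries. KO replicate 1 exceeded wildtype replicate 2, so the groups overlapped, and the difference of -2.38 (SE 0.966) became -1.50 without wildtype replicate 1, -3.41 without KO replicate 1 and -1.76 without KO replicates 2 and 3. Plin4 overlaps Hdgfl2 on the opposite strand, and whether the counting used strand is not given in the sources used here. Plin5, a perilipin of oxidative tissues that lies 1798 bp from Plin4, did not share its order, with 0.39, 0.64 and 0.59 FPKM in KO and 0.16, 0.30 and 0.17 FPKM in wildtype libraries.

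Pparg, which encodes the receptor that drives fat cell formation, had a difference about as small as that of Lpl (chr6:115360951-115490399). It is also expressed outside fat cells, for example in macrophages. Its level was 3.65, 2.68 and 2.78 FPKM in KO and 6.33, 4.02 and 6.46 FPKM in wildtype libraries, with no overlap, and the difference was -0.78 (SE 0.263).

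**Figure D2:**
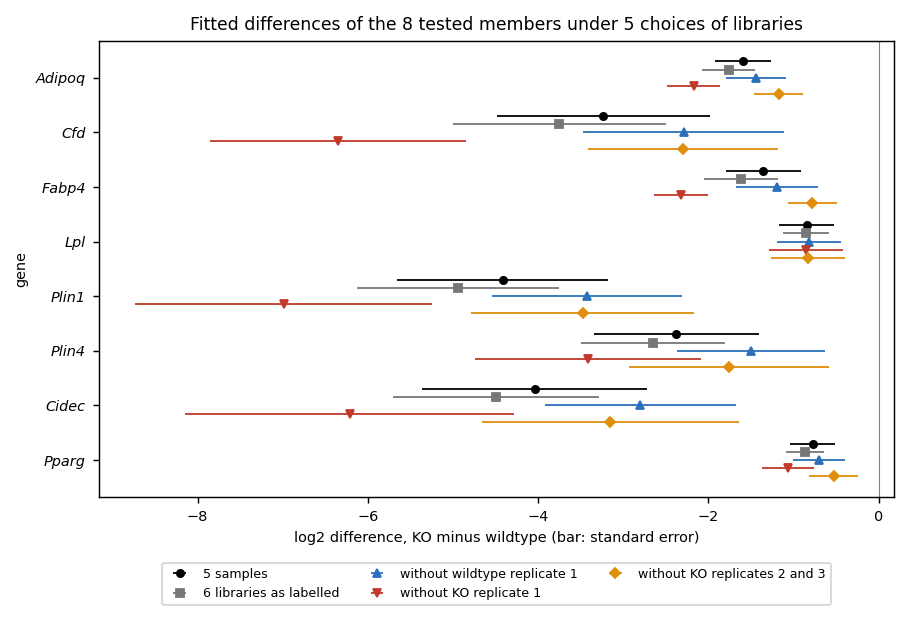
Log2 difference, KO minus wildtype (horizontal axis, bars are standard errors), of the 8 tested genes in the 5 samples and in 4 other choices of libraries. All points lie below 0, and those of Cfd, Plin1, Plin4 and Cidec move by more than those of Lpl and Pparg when a library is left out.

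Across the group, 8 of the 10 genes had a mean of at least 0.5 FPKM and were tested among 15373 genes, while Lep and Retn were not. A gene that passed this limit may have done so through its wildtype libraries, and the genes were chosen for this contrast, so the counts that follow are not support for a difference. All 8 tested genes were lower in KO (52.5% of all tested genes were), and 6 had a log2 difference below -1 (2.09% of tested genes). Their median difference was -1.99, against -0.016 for all tested genes, and with all 10 genes and no filter it was -1.96 against -0.052. With edgeR's quasi-likelihood test and Benjamini-Hochberg adjustment over all 15373 genes, 0 members and 0% of tested genes were called at an adjusted p under 0.05. At an unadjusted p under 0.05, all 8 tested members were counted, against 13.7% of tested genes, or 6.07% counting genes lower in KO and 7.63% counting genes higher in KO. When KO replicates 2 and 3 entered as separate samples, Adipoq was the 1 member called, with 3.71% of tested genes called (1.25% called and lower in KO). DESeq2 on the 5 samples called Adipoq, Plin1 and Fabp4, with 5.72% of tested genes called (2.27% called and lower in KO).

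The libraries were ordered alike in 5 of the 10 genes, named below. Every KO library was under every wildtype library in 6 of the 10 genes, and 13.7% of all tested genes were so ordered. In Adipoq, Cfd, Plin1, Fabp4 and Cidec the whole order was the same, namely wildtype replicate 1, wildtype replicate 3, wildtype replicate 2, KO replicate 1 and then KO replicates 2 and 3, an order that 1.9% of tested genes had. The summed level of the 10 genes was 60.6, 26.8 and 26.8 FPKM in KO and 226, 82.0 and 152 FPKM in wildtype libraries. The order of the wildtype libraries was another one in the erythroid list, whose sum was highest in replicate 3 and lowest in replicate 1, and in the B cell list, whose sum was lowest in replicate 3. The neutrophil sum was lowest in wildtype replicate 1 and highest, among wildtype, in replicate 2, the reverse of the adipocyte genes. The endothelial sum, in contrast, had the same wildtype order as the summed adipocyte genes, with 46.4, 31.2 and 39.6 FPKM in replicates 1, 2 and 3. The part of endothelium in the result was not tested. The macrophage sum had the wildtype order of Lpl and Pparg, highest in replicate 3 and lowest in replicate 2. Its part was not tested either.

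**Figure D3:**
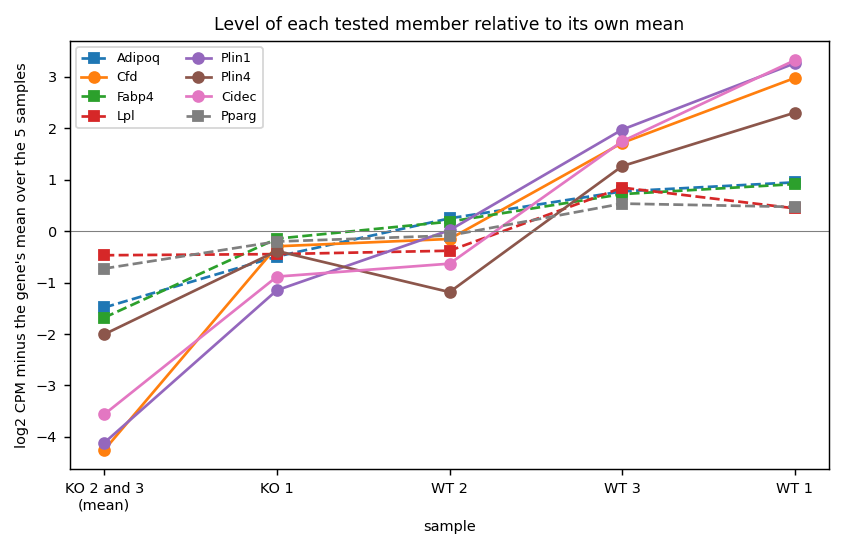
Log2 CPM of the 8 tested genes minus each gene's own mean over the 5 samples (vertical axis), with samples on the horizontal axis from the lowest to the highest average. Solid lines with circles are Cfd, Plin1, Plin4 and Cidec and dashed lines with squares are Adipoq, Fabp4, Lpl and Pparg, and the solid lines span a wider range than the dashed ones.

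Within wildtype the genes fell apart into steep and shallow ones. Among the wildtype libraries, the highest level over the lowest was 17.7-fold for Cidec, 12.3-fold for Plin4, 10.4-fold for Plin1 and 9.42-fold for Cfd. It was 2.45-fold for Lpl, 1.77-fold for Fabp4, 1.74-fold for Adipoq, 1.61-fold for Pparg and 1.22-fold for Retn. In KO, replicate 1 over the mean of replicates 2 and 3 was 15.2-fold for Cfd, 12.8-fold for Plin1 and 7.98-fold for Cidec. The Plin1 and Cidec ratios rest on 3 to 8 counts in replicates 2 and 3. The same ratio was 2.69-fold for Fabp4, 1.84-fold for Adipoq, 1.34-fold for Pparg and 0.94-fold for Lpl. Plin4, steep in wildtype, stood at 2.93-fold in KO, near Fabp4. The highest over the lowest wildtype level of the droplet genes and of adipsin thus exceeded the fitted 3.02-fold group difference of Adipoq. These measures are unlike, a ratio of single libraries and a difference of group averages. Adipoq was 5.44-fold higher in wildtype replicate 1 than in the mean of KO replicates 2 and 3.

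Within the 3 wildtype libraries the SD of log2 CPM was 1.99 for Cidec, 1.79 for Plin4, 1.63 for Plin1 and 1.58 for Cfd. It was 0.63 for Lpl, 0.38 for Fabp4, 0.36 for Adipoq and 0.34 for Pparg. Of all tested genes, 0.384% had a larger wildtype SD than Cidec and 0.709% a larger one than Cfd, whereas 6.43% exceeded Lpl, 17.3% Fabp4, 18.4% Adipoq and 20.6% Pparg. In KO replicates 2 and 3, Plin1 and Cidec had only 3 to 8 counts.

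The levels of the members relative to each other were therefore not constant between libraries, and which cells made these transcripts was not tested. Relative to Adipoq in the same library, Fabp4 was at 133%, 91.9% and 90.7% in KO and 102%, 100% and 101% in wildtype libraries. This ratio was nearly fixed in wildtype. Cfd stood at 42.4%, 5.68% and 4.59% of Adipoq in KO and at 152%, 28.0% and 71.3% in wildtype, and Plin1 at 0.68%, 0.08% and 0.11% against 5.72%, 0.95% and 2.62%. The groups did not overlap in the Plin1 ratio, which rests on 3 and 4 counts in KO replicates 2 and 3. They overlapped for Cidec, at 1.81%, 0.56% and 0.28% in KO and 13.4%, 1.32% and 5.06% in wildtype, and for Plin4, at 3.11%, 2.14% and 1.77% against 7.45%, 1.06% and 4.09%. Pparg was at 11.3% to 13.4% of Adipoq in wildtype and at 19.3% to 27.2% in KO.

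**Figure D4:**
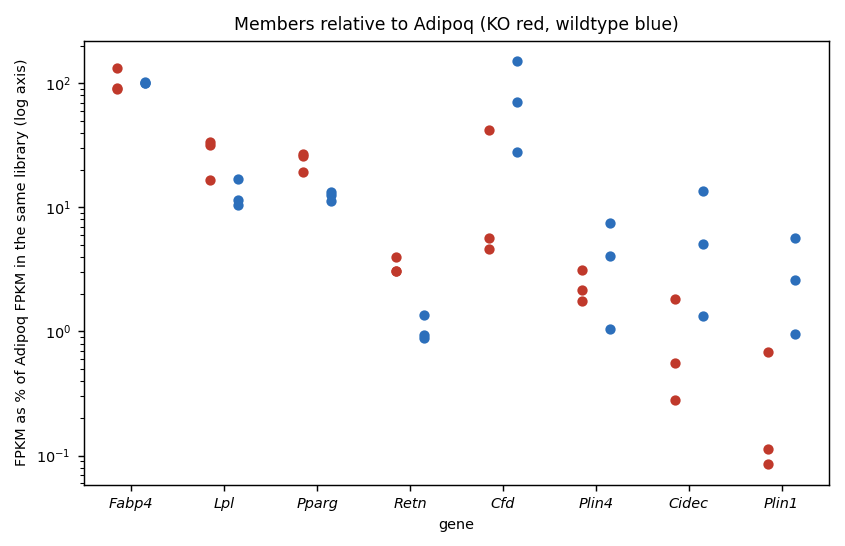
FPKM of 8 of the genes as a percentage of Adipoq FPKM in the same library (vertical log axis), KO libraries in red and wildtype libraries in blue, 1 point per library. Lep is left out because it was 0 in 3 libraries. The wildtype points of Fabp4 lie together near 100%, while those of Cfd, Plin4, Cidec and Plin1 are spread widely.

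The other genes of fat cell biology were compared from lists that hold none of the 10 genes. Of 109 listed genes, 84 were tested, of which 36 were higher and 48 lower in KO, with a median difference of -0.070. With edgeR on the 5 samples 0 of them were called (0% of all tested genes). At an unadjusted p under 0.05, 11 were higher and 19 lower, against 7.63% and 6.07% of all tested genes. With the 6 libraries as labelled, 12 were called, 5 higher and 7 lower, against 2.46% called higher and 1.25% called lower among tested genes. The adjusted p-values below are from edgeR's quasi-likelihood test, first on the 5 samples and then on the 6 libraries as labelled, in which KO replicates 2 and 3 count as separate samples.

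Of the other secreted or marker genes of fat cells, 6 of 8 tested genes were lower in KO, with a median of -0.76. Car3 encodes carbonic anhydrase 3, which is abundant in fat and in slow muscle. It was at 12.4, 10.4 and 10.7 FPKM in KO and 62.9, 23.3 and 26.3 FPKM in wildtype libraries (difference -1.67, SE 0.420, adjusted p = 0.182 and 0.0449). Trarg1, a regulator of glucose transporter traffic, differed by -1.45 (adjusted p = 0.287 and 0.0860) and the imprinted gene Mest by -0.80 (adjusted p = 0.372 and 0.152). Without wildtype replicate 1 the difference was -1.11 for Car3, -0.89 for Trarg1 and -0.52 for Mest.

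Uptake genes were split, with 7 of 10 tested genes lower and a median of -0.42. Angptl4, a PPAR target whose product inhibits lipoprotein lipase, was at 3.67, 2.27 and 2.23 FPKM in KO and 9.75, 6.39 and 7.29 FPKM in wildtype libraries (difference -1.36, SE 0.286, adjusted p = 0.166 and 0.0363). Cd36, the fatty acid translocase, was at 19.4, 12.1 and 13.0 FPKM against 36.3, 29.4 and 42.7 FPKM (difference -1.14, SE 0.247, adjusted p = 0.166 and 0.0371). Both had every KO library under every wildtype library, and both are also made by macrophages, endothelium or muscle. Slc27a4, a fatty acid transporter, was higher in KO by 0.55 (adjusted p = 0.171 and 0.0363).

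Of the synthesis genes 7 of 14 tested genes were higher and 7 lower, with a median of 0.11. At an unadjusted p under 0.05 in edgeR 3 were higher and 5 lower, against 7.63% and 6.07% of all tested genes. The differences farthest from 0 were of genes lower in KO, named here after their values were seen. They were -2.19 for Scd1, the stearoyl-CoA desaturase (adjusted p = 0.223 and 0.0623), -1.84 for Gpd1, which makes glycerol phosphate (adjusted p = 0.175 and 0.0433), and -1.41 for Thrsp, a promoter of lipogenesis (adjusted p = 0.332 and 0.132). The 2 enzymes of the last step of triglyceride synthesis were higher in KO. Dgat1 was at 39.1, 50.3 and 53.9 FPKM in KO and 27.6, 29.4 and 26.7 FPKM in wildtype libraries (difference 0.72, adjusted p = 0.166 and 0.0358), and Dgat2 differed by 0.91 (adjusted p = 0.166 and 0.0358). Gpam, the acyltransferase of the first step, was lower by a log2 difference of -0.66 (adjusted p = 0.171 and 0.0367). Of the lipid droplet and lipolysis genes other than the members, 6 of 12 were higher, with a median of 0.050. Abhd5, the activator of the triglyceride lipase, differed by 0.65 (adjusted p = 0.166 and 0.0358), Plin3, a perilipin found in most cells, by 0.60 (adjusted p = 0.196 and 0.0455) and Mgll, the monoglyceride lipase, by -0.46 (adjusted p = 0.466 and 0.174). The tested perilipins thus had no common direction, Plin1 and Plin4 being lower and Plin3 higher in KO, and Plin2 at -0.0014. None of them was called by edgeR on the 5 samples.

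Among adipogenic transcription factors, 8 of 12 tested genes were higher and 4 lower, with a median of 0.075. Ebf1, which acts both in fat cell precursors and in B cells, was at 1.06, 1.15 and 1.31 FPKM in KO and 3.88, 2.75 and 2.85 FPKM in wildtype libraries (difference -1.44, SE 0.188, adjusted p = 0.111 and 0.0217). It is also on the B cell list, of which 7 of 8 genes were called and lower with the 6 libraries as labelled (1.25% of tested genes were). Cebpb, an early factor of adipogenesis and of inflammation, differed by 1.74 (SE 0.541, adjusted p = 0.237 and 0.233), with 26.8 FPKM in KO replicate 1 but 9.39 and 4.62 FPKM in KO replicates 2 and 3 and 3.60 to 6.08 FPKM in wildtype libraries. Cebpd, another early C/EBP factor, differed by 0.64 (adjusted p = 0.247 and 0.118). Of the anti-adipogenic regulators 2 of 6 were higher, with differences of -0.21 for Ddit3, a C/EBP factor that blocks the others, 0.22 for the corepressor gene Ncor1 and -0.10 for Gata2, a factor of precursors (adjusted p from 0.623 to 0.846 on the 5 samples in edgeR).

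**Figure D5:**
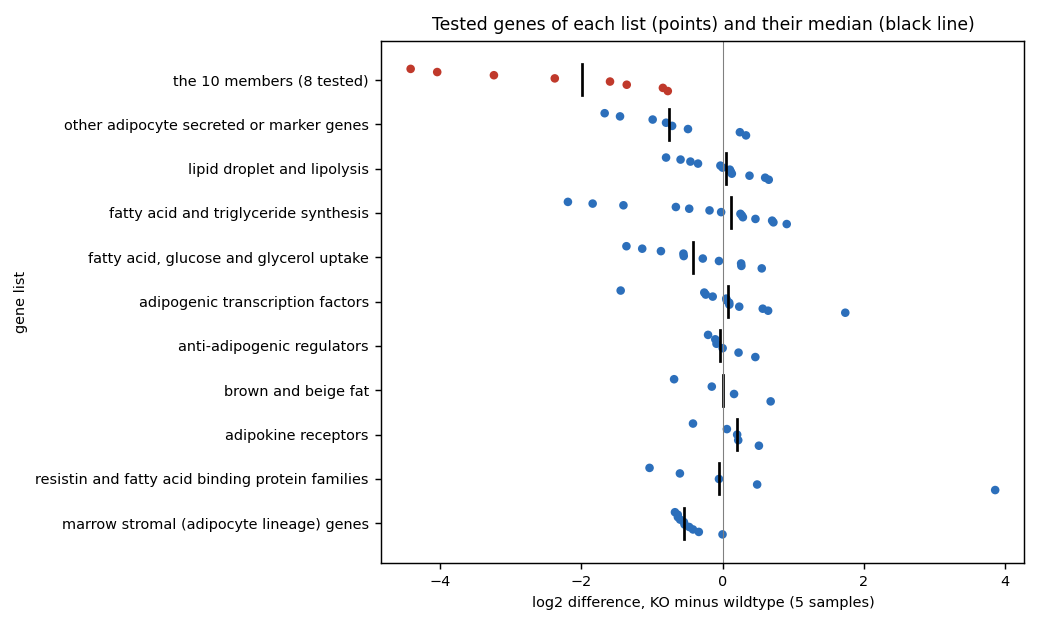
Log2 difference, KO minus wildtype, in the 5 samples (horizontal axis) for each tested gene (points) of the 10 members (red) and of the other lists (blue), with the median of each list as a black line. The members and the other marker genes lie mostly below 0, while the lipid droplet, synthesis and transcription factor lists are spread on both sides of 0.

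Marrow stromal genes, which mark the mesenchymal cells from which marrow fat cells arise, were lower in KO in 10 of 10 tested genes, with a median of -0.54, and 7 of 10 had every KO library under every wildtype library (13.7% of tested genes). On the 5 samples in edgeR 0 were called, 6 were lower at an unadjusted p under 0.05 (6.07% of tested genes), and Kitl was called with the 6 libraries as labelled. Kitl, the stem cell factor, was at 6.06, 5.94 and 6.23 FPKM in KO and 10.2, 8.62 and 8.20 FPKM in wildtype libraries (difference -0.55, adjusted p = 0.182 and 0.0399). Esm1, a secreted proteoglycan, differed by -0.68 (adjusted p = 0.203 and 0.0506). Lepr, the leptin receptor, which marks these stromal cells, was at 7.50, 7.72 and 7.61 FPKM in KO and 12.0, 9.12 and 9.82 FPKM in wildtype libraries (difference -0.42, adjusted p = 0.257 and 0.0652). It was thus present in the libraries where leptin itself was at 0 counts. The levels of Kitl, Esm1 and Lepr were nearly equal over the 3 KO libraries. These genes were named for their small unadjusted p in edgeR, which favours genes with little spread within a group. No trait of the list is therefore read from this.

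Of 5 tested adipokine receptors 4 were higher, with a median of 0.20, and Lepr was the lower one. Adipor2, an adiponectin receptor, differed by 0.20 (adjusted p = 0.552 and 0.224) and Cap1, which encodes a resistin-binding protein, by 0.51 (adjusted p = 0.259 and 0.0615). In the families of resistin and the fatty acid binding proteins, 2 of 5 tested genes were higher. Retnlg, a resistin-like gene of neutrophils, was at 1840 to 1869 FPKM in KO and 1162 to 1491 FPKM in wildtype libraries (difference 0.49, adjusted p = 0.370 and 0.145). Retnla, another resistin-like gene, was at 17.5 FPKM in KO replicate 1, listed at 0 in KO replicates 2 and 3, and at 0.30 to 1.27 FPKM in wildtype libraries. Its difference of 3.86 (adjusted p = 0.380 and 0.411) rested on 1 library. Fabp7, the brain form of the binding protein, differed by -1.04 (adjusted p = 0.330 and 0.212). In brown and beige fat genes 2 of 4 tested were higher, with Dio2, which activates thyroid hormone, at 0.68 (adjusted p = 0.290 and 0.0850), Tmem26 at -0.69 (adjusted p = 0.353 and 0.116) and Cox7a1, a subunit gene of cytochrome oxidase, at 0.16 (adjusted p = 0.956 and 0.934), a sign that changed with the choice of libraries.

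Whole pathways were then counted by the deposited KEGG annotation, with the members left out. In PPAR signaling, 14 of 37 tested genes were higher and 23 lower with a median of -0.053. In adipocytokine signaling 27 of 44 were higher with a median of 0.068, and in the regulation of lipolysis in adipocytes 19 of 32 were higher with a median of 0.071. All medians were near the -0.016 of all genes. Of these pathways, with the 6 libraries as labelled, Slc27a4 was called higher and Angptl4 and Cd36 lower in PPAR signaling. Tnfrsf1a, the receptor of tumour necrosis factor, was called higher (difference 0.50, adjusted p = 0.197 and 0.0441) and Cd36 lower in adipocytokine signaling, where the glucose transporter gene Slc2a1 was not called (0.66, adjusted p = 0.193 and 0.0504). In lipolysis, Abhd5 and the kinase gene Pik3cb (0.50, adjusted p = 0.202 and 0.0497) were called higher and the adenylyl cyclase gene Adcy6 lower (-0.49, adjusted p = 0.175 and 0.0371).

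Genes with the most similar profile were sought among the 2317 tested genes whose SD over the 5 samples was at least 0.5 on the log2 scale. Likeness was Pearson's r with the mean centred profile of the 8 members, a description over 5 samples that share their group structure. The 10 highest were Scml4 (0.995), Ccnd1 (0.994), Ehd2 (0.993), Gm6249 (0.993), Gpm6a (0.992), Mrap (0.991), Gm20716 (0.991), Cr2 (0.990), Igf1 (0.989) and Calml3 (0.988). Ccnd1 encodes cyclin D1, Mrap an accessory protein of the melanocortin receptors, Cr2 a complement receptor of B cells and Igf1 the growth factor IGF-1. Mrap was at 1.45, 1.01 and 0.87 FPKM in the KO libraries and 4.66, 1.93 and 3.54 FPKM in the wildtype libraries. Gm20716 was at 0 in KO replicate 2 and 9.89 FPKM in KO replicate 3, so its place rests on an average of unlike values. The SD of these genes ran from 0.51 (Gpm6a) to 0.90 (Mrap), except for Calml3 at 2.48.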

How the data were processed

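Articular cartilage RNA of 3 KO and 3 wildtype libraries was sequenced as paired reads of 150 bases after oligo(dT) capture and strand-specific preparation with molecular identifiers. The identity and level of the deleted gene are not given here. The submitters' processing notes name cutadapt 1.9, HISAT2 2.0.4, UMI-tools, StringTie 1.3.4d, DESeq2 and edgeR, without settings. The authors deposited FPKM values, scaled within each library, and estimated counts, which were whole numbers as deposited but piled up at 4 (6596 values) against 3 (4170) and 5 (2332). Counts may therefore not be single reads, and intervals or floors cover counting error only. Positions were in GRCm38. Every column of a sample was used, and 0 columns of samples were left unmatched.

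Groups and replicate numbers came from the sample titles, and the age from the column names. The members, gene lists and alternatives were chosen with earlier results of these data known. KO replicates 2 and 3 were averaged as 1 sample (rounded counts or mean FPKM). The mean over libraries had to reach 0.5 FPKM for a gene to be tested, with edgeR 4.0.16 (R 4.3.3, quasi-likelihood test, TMM scaling, Benjamini-Hochberg adjustment). Standard errors came from the log2 difference and F. The script was tested on simulated data. Log2 CPM used a prior count of 2. Named genes other than members were up to 3 of each list with the smallest unadjusted p, and the 10 with the most similar profile. Elane, Plin5 and Hdgfl2, neighbours of members, were named after their values were seen. Alternatives were the 6 libraries as labelled, median-of-ratios scaling, DESeq2 1.42.0, limma 3.58.1 with pseudocounts of 1 and 0.1 FPKM, no filter, a limit of 5 FPKM, libraries left out and a replicate block. Promoters were matched by symbol to RefSeq windows of 300 bases. Protein sequences were not used here.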

Additional observations from a re-analysis of the deposited data

How the results depend on the processing

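The median difference of the tested members was negative under every alternative tried. It was -2.21 with the 6 libraries as labelled, and -1.64 with a limit of 5 FPKM, which only Adipoq, Cfd and Fabp4 passed. With limma it was -1.29 and -1.72 at pseudocounts of 1 and 0.1 FPKM. It was -1.47 without KO replicates 2 and 3, and -2.87 to -1.47 with each library left out. No member changed sign among those tested. The tested members were chosen with their low level in KO in these same libraries known, so the constant sign is not support for a difference. Genes called at an adjusted p under 0.05 went from 0 (2106 at an unadjusted p under 0.05) to 570 with the 6 libraries as labelled, 879 with DESeq2, 21 without the filter and 9 without KO replicates 2 and 3. Leaving out single libraries gave 0 to 352, the 352 being without KO replicate 1, where the lone KO sample is assumed to vary like the wildtype samples. Of the other adipocyte and lipid genes 0 were called on the 5 samples, 12 with the 6 libraries as labelled, 16 with DESeq2, 1 without the filter, and 0 to 6 with each library left out, the 6 being without KO replicate 1. The sign changed for Cox7a1 (-0.12 with the 6 libraries, and -0.89 to 0.57 when single libraries were left out, negative without KO replicate 1, KO replicate 3 or wildtype replicate 1), for Retnla (-7.64 to 4.91 when single libraries were left out, the lowest without KO replicate 1, where KO is at 0 and the value depends on the prior count) and for Ncor1 (-0.096 without KO replicates 2 and 3). The causes were not tested, beyond the fewer samples these fits hold.

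Deviations of same-numbered libraries from their group means correlated at -0.14, -0.11 and -0.058. KO replicates 2 and 3 were nearly alike and both correlated best with wildtype replicate 1, so they could not match different wildtype libraries. This check therefore cannot decide whether the replicate numbers pair the samples. With the replicate number as a block on the 6 libraries, 0 genes were called (2809 at an unadjusted p under 0.05), the median of the members was -2.07, and Cox7a1 and Retnla were at -0.38 and -1.06. With 2 KO samples and low counts for Plin1, Cidec and Lep in KO replicates 2 and 3, the size of their differences is known only roughly.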
